A study of Bos taurus with 6 samples.

Results

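Rab GTPases are small switch proteins that mark the membranes of a cell. In the GTP-bound form they sit on 1 kind of vesicle or organelle and recruit motors, tethers and coat proteins to it, and after GTP hydrolysis they are taken off the membrane and held in the cytosol. Exchange factors load them with GTP, GTPase-activating proteins switch them off, and a prenyl tail added by a dedicated transferase lets them hold on to membranes. In mammary epithelium they serve, as in other secretory epithelia, the sorting of proteins to the apical and basolateral faces and the release of secretory vesicles.

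The Rab genes described here are the protein-coding genes whose symbol in the deposited count table is RAB followed by a number and at most 1 letter, with at least 60 counts summed over the 6 libraries. Of 57 symbols with such a name, 46 met the count minimum, out of 28200 rows in the table. Where a symbol stood on 2 rows the row with more counts was taken, which concerned RAB21 alone. Just inside the minimum were RAB36 with 78 counts and RAB27B with 95, and just outside it were RAB37 with 53 and RAB6B with 33. The 11 symbols under the minimum included RAB17, RAB9B, RAB39B and RAB44, which had 0 counts in every library.

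The cells were primary bovine mammary epithelial cells, isolated from breast tissue by enzyme digestion, of the Holstein breed. There were 3 libraries of KLF6 knockout cells (KO), in which the gene for the zinc-finger transcription factor KLF6 had been disrupted with CRISPR/Cas9, and 3 libraries of wild-type cells (WT). No further treatment, age or time was given for either group. Whether libraries sharing a genotype are separate cultures, animals or edited clones is not stated. The p-values therefore reflect library-to-library spread alone, and this spread may be technical.

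Total counts lay between 17512892 and 18724879 per library. KLF6 itself had 224, 230.1 and 217 CPM (reads per 1000000 after TMM scaling) in the KO libraries, against 503, 496 and 558 CPM in the WT libraries, a log2 fold change of -1.21 ± 0.05 (SE; edgeR adjusted p = 2.25e-13). Reads of KLF6 therefore remained in KO cells. The epithelial surface genes EPCAM and CDH1 were read in both genotypes, with means of 167 and 290.3 CPM in KO and 165 and 306 CPM in WT. Both belong to the 9 luminal markers summed next, most of which fell, so they do not stand for that list. The summed level of 9 luminal markers was 4115 to 4267 CPM in KO and 11463 to 12752 CPM in WT, and 7 of the 9 were lower and 0 higher. The sum over 7 basal markers was 3391 to 3476 CPM in KO and 7002 to 7162 CPM in WT, with 2 higher and 5 lower. The sum over 8 fibroblast markers was 245 to 258 CPM in KO and 1054 to 1250 CPM in WT, mostly DCN, with 1 higher and 4 lower of 6 tested. Leukocyte markers summed to 5.05 to 5.71 CPM in KO and 4.29 to 4.97 CPM in WT with PTPRC at 0, and adipocyte markers to 1.89 to 4.24 CPM in KO and 1.75 to 2.35 CPM in WT with ADIPOQ at 0. The endothelial sum of 30.8 to 32.6 CPM in KO and 4.501 to 5.79 CPM in WT came with KDR at 0 and rested on PECAM1, the 1 higher gene of 3 tested, while the other two were lower. Marker sums moved with genotype, and their part in the Rab results below was not tested. In such bulk RNA, fewer cells of a type and less RNA per cell cannot be told apart. WT replicate 3 stood apart from the other WT libraries: its variance over that of counting was 9.14 and 9.12 against them, compared with 2.27 to 2.79 for every other pair within a genotype.

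Most Rab genes differed between the genotypes by a small amount, and 4 differed by a large one. RAB15 and RAB25, which act on recycling endosomes, fell at least 2-fold in KO, and RAB38 and RAB27B, which act on lysosome-related and secretory organelles, rose at least 2-fold. With the quasi-likelihood test of edgeR, at a Benjamini-Hochberg adjusted p of 0.05 over 13390 genes, all 46 Rab genes were tested, 14 rose, 22 fell and 10 were not called. That is 78.3% called, beside 74.6% of all genes tested, 37.1% higher and 37.6% lower. Without WT replicate 3 the counts were 15 higher and 23 lower, with no share of all genes given for that fit. The KO and WT libraries did not overlap in CPM for 41 Rab genes, or 89.1%, beside 76.2% of all genes tested.

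The sizes of the changes were mostly modest. The 4 Rab genes called with at least a 2-fold change are 8.70% of the 46, beside 22.3% of all genes tested, 10.8% higher and 11.5% lower. In turn, 22 of the 46 Rab genes (47.8%) were called with a change under 1.5-fold, beside 33.1% of all genes. The median log2 fold change was -0.13 for the Rab genes and -0.0099 for all genes, and the median absolute log2 fold change was 0.36 for the Rab genes and 0.50 for all genes. Summed per gene length, the 46 genes came to 1531 ± 9.43 RPKM (CPM per 1000 bases of the deposited gene length) in KO and 1668 ± 29.1 RPKM in WT (SD, n = 3 each), a ratio of 0.918. They took 0.349% of the library counts in KO and 0.388% in WT.

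**Figure D1:**
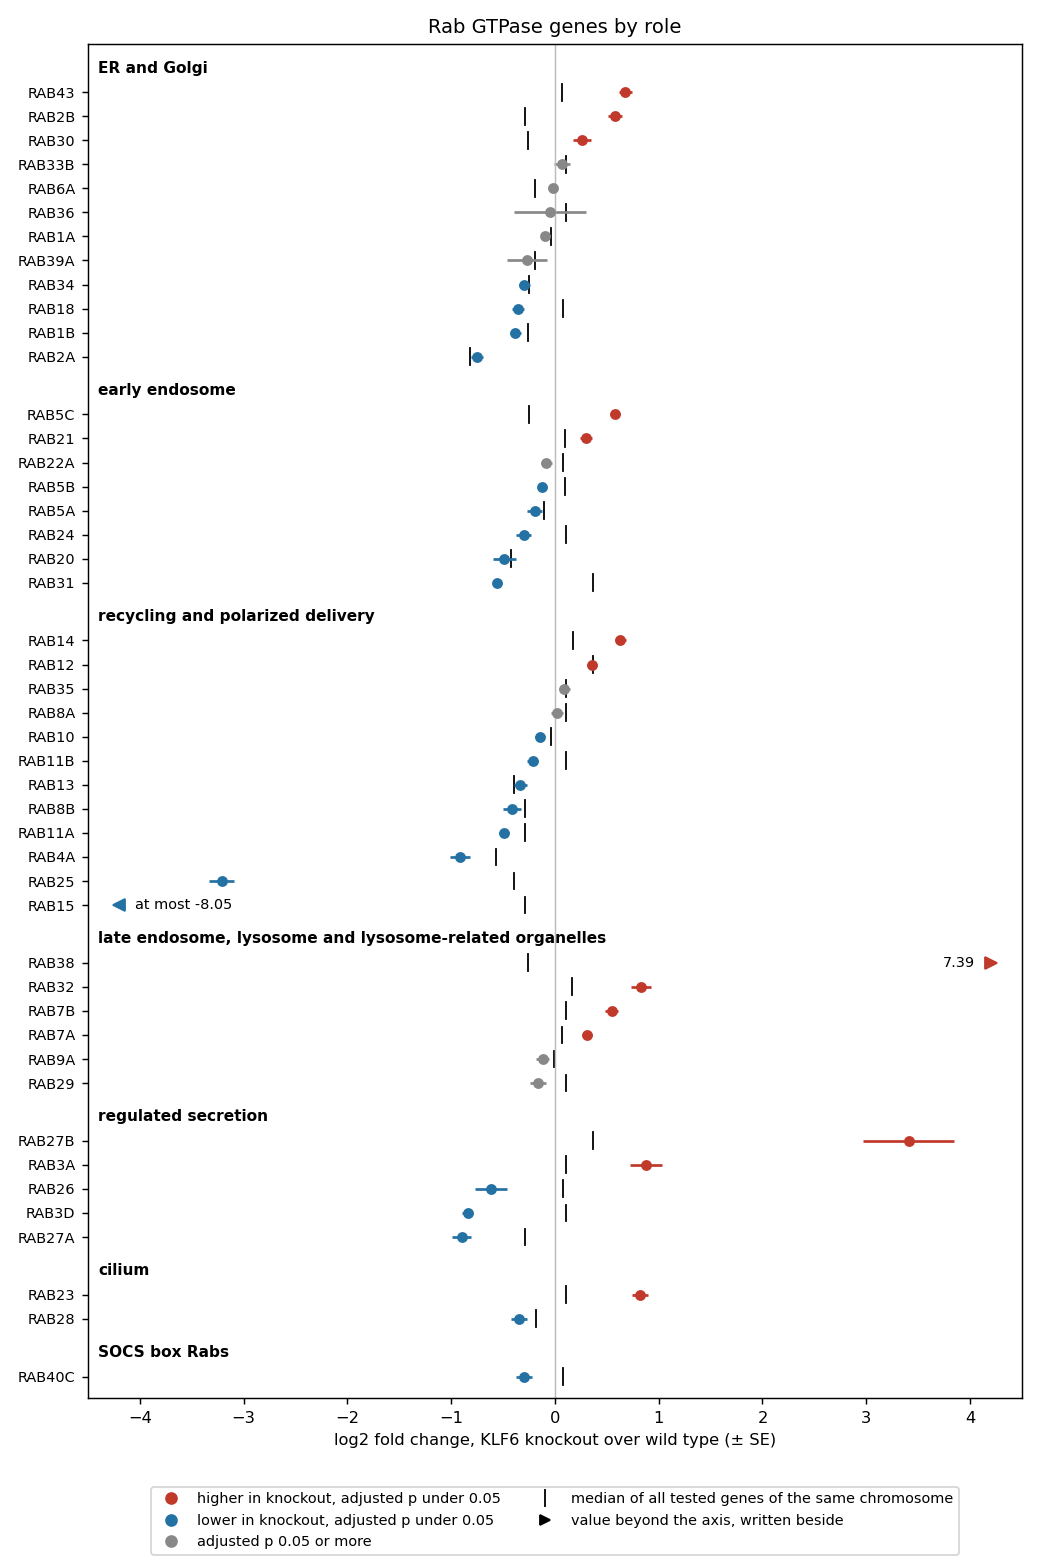
Log2 fold change of each of the 46 Rab genes, KO over WT, with its SE, grouped by the membrane the protein is best known for; ticks mark the median of all tested genes on the same chromosome. RAB15 is drawn at its bound of -8.05 and RAB38 at 7.39, both beyond the axis, while most genes lie between -1 and 1.

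The largest fall was that of RAB15, known as a Rab of early and recycling endosomes that can slow receptor recycling. RAB15 (ENSBTAG00000003474, chromosome 10, 77076095 to 77096617 in the coordinates of the count table, for which no genome build is stated) had 0 reads in each KO library, against 14.6, 12.8 and 16.9 CPM in the WT libraries. Every WT library held the transcript and no KO library did. With 0 counts in KO and 807 in WT, RAB15 was at least 264-fold lower in KO, taking 3 counts over the group as the floor (edgeR adjusted p = 8.43e-13).

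RAB25, a relative of RAB11A found mainly in epithelia, where it works in apical recycling, lies on chromosome 3 (ENSBTAG00000018914, 14700973 to 14708274). RAB25 had 3.67, 2.72 and 3.68 CPM in the KO libraries, against 34.5, 29.5 and 29.2 CPM in the WT libraries. All KO libraries were far below all WT libraries, with a log2 fold change of -3.21 ± 0.12 (edgeR adjusted p = 6.41e-14), which is 9.26-fold lower. The median log2 fold change of all tested genes on chromosome 3 was -0.39, and RAB25 stood at -2.82 with that median taken out. The luminal marker sum given above fell with it, and its part in the RAB25 result was not tested.

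RAB38 rose in the other direction. It is the Rab of melanosomes and other lysosome-related organelles, known from the mouse coat-colour mutant chocolate, and lies on chromosome 29 (ENSBTAG00000015793, 7501290 to 7566916). RAB38 had 12.3, 12.7 and 15.3 CPM in the KO libraries, against 0, 0.0536 and 0.164 CPM in the WT libraries. The WT libraries held 4 reads of it in all and the KO libraries 722, a ratio of 184 after scaling (95% counting interval 71.4 to 676; intervals here cover counting error only). The fitted log2 fold change of RAB38 was 7.39 ± 0.31 (edgeR adjusted p = 3.13e-13), and 8.61 without WT replicate 3, which held most of the WT reads.

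RAB27B, which docks secretory vesicles and exosome-forming compartments at the plasma membrane, was the rarest Rab gene to change by this much. RAB27B (ENSBTAG00000002788, chromosome 24, 54084316 to 54254593) had 1.55, 1.63 and 1.67 CPM in the KO libraries, against 0.0564, 0.268 and 0.109 CPM in the WT libraries. The groups did not overlap, but the level was low in both: 87 reads in KO and 8 in WT, a ratio of 11.1 (95% counting interval 5.37 to 26.4). Its log2 fold change was 3.41 ± 0.44 (edgeR adjusted p = 1.32e-06), and 4.17 without WT replicate 2.

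**Figure D2:**
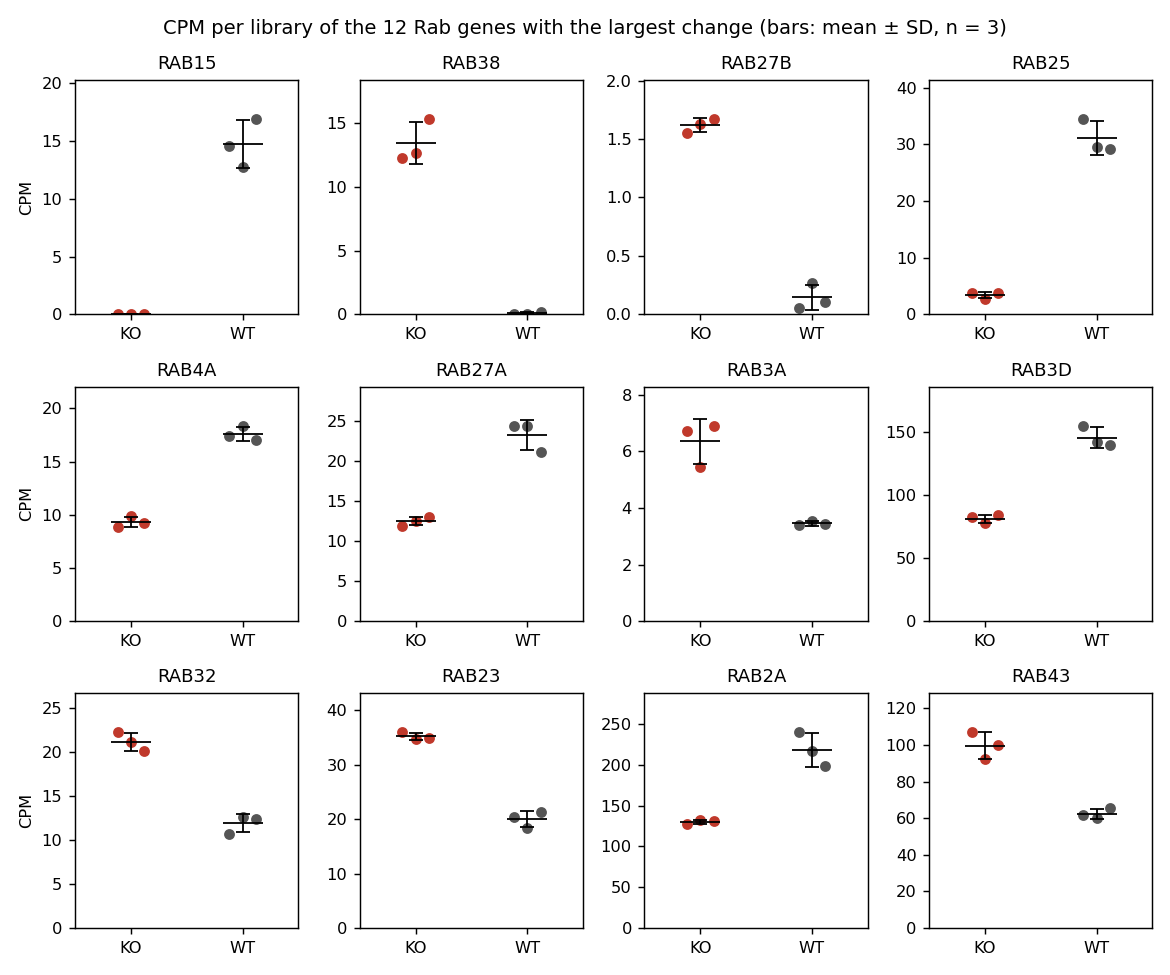
CPM in each KO and WT library of the 12 Rab genes with the largest change, with mean and SD (n = 3 each); each panel has its own axis, starting at 0. In all 12 panels the KO and WT points do not overlap, beside 76.2% of all genes tested, and RAB15 stands at 0 in KO. The genes were picked by the size of their change, so the lack of overlap is no separate evidence.

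These 4 genes were not among the most abundant Rabs by mean level over both genotypes. Per length, the highest mean levels over the 6 libraries were those of RAB11A (156 RPKM), RAB1A (118 RPKM), RAB7A (111 RPKM), RAB10 (87.5 RPKM) and RAB34 (86.9 RPKM). Among the 23 Rab genes with the higher RPKM, 5 rose and 13 fell and 0 changed by at least 2-fold. Among the other 23, 9 rose and 9 fell, and all 4 genes with a change of at least 2-fold were there (17.4%, beside 22.3% of all genes tested). In each set 78.3% were called, beside 74.6% of all genes tested. Because the level is a mean over both genotypes, a gene nearly absent from 1 genotype ranks lower through its own change. RAB25, for example, had 2.57 RPKM in KO and 23.8 RPKM in WT.

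**Figure D3:**
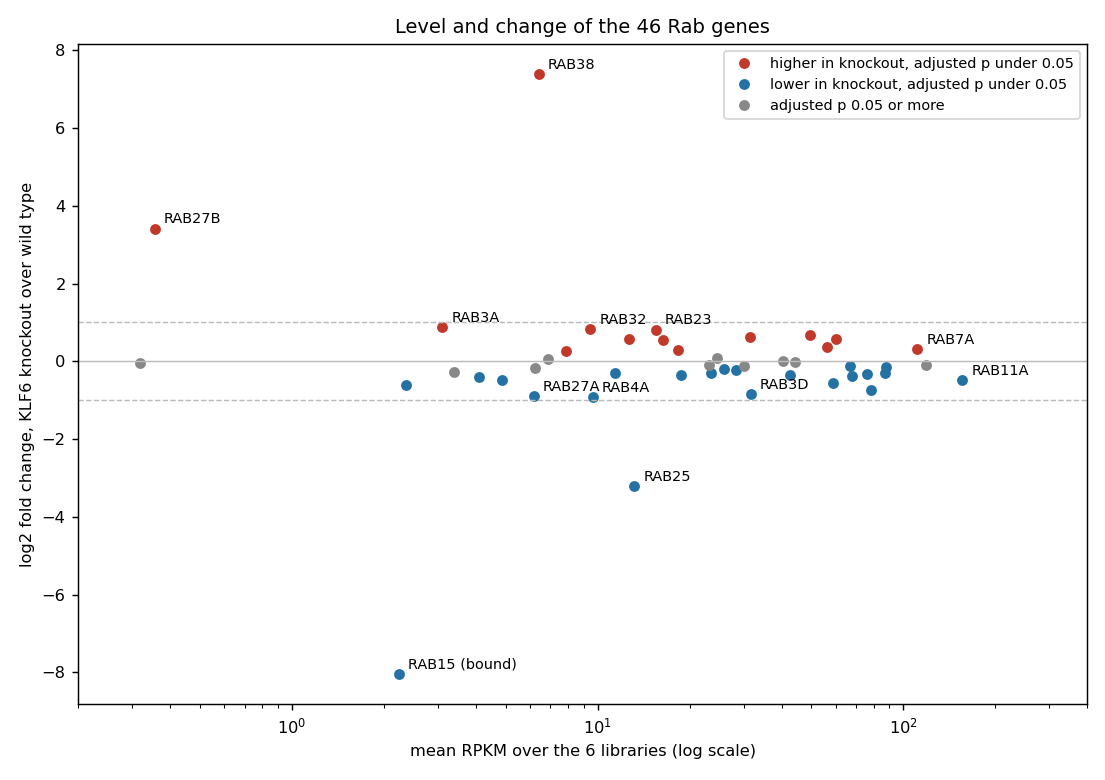
Mean RPKM over the 6 libraries (log scale) against log2 fold change, KO over WT, for the 46 Rab genes; dashed lines mark a 2-fold change and RAB15 is drawn at its bound. The 5 most abundant genes lie between -0.49 (RAB11A) and 0.31 (RAB7A).

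Rabs of the endoplasmic reticulum and Golgi carry cargo along the early secretory route. Of 12 tested, 3 rose, 4 fell and 5 were not called, with a median log2 fold change of -0.070. The share called was 58.3%, beside 74.6% of all genes tested (37.1% higher and 37.6% lower). Their summed level was 487 ± 6.92 RPKM in KO and 552 ± 13.5 RPKM in WT (SD, n = 3 each).

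RAB1A, needed for transport from the endoplasmic reticulum to the Golgi, had 176, 178 and 167 CPM in the KO libraries, against 182, 184 and 189 CPM in the WT libraries. All KO values were below all WT values, but the difference of -0.092 ± 0.05 on the log2 scale was not called (edgeR adjusted p = 0.0743). Its close relative RAB1B had 91.9, 87.6 and 88.9 CPM in KO libraries, against 118, 109 and 123 CPM in WT libraries, and fell by 0.38 ± 0.05 on the log2 scale (edgeR adjusted p = 4.01e-06). With the median of chromosome 29 (-0.26) taken out, RAB1B stood at -0.12 and was not called (adjusted p = 0.0594).

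RAB2A and RAB2B, a pair that acts between the endoplasmic reticulum and the Golgi, moved in opposite directions. RAB2A had 127, 132 and 131 CPM in the KO libraries, against 239.6, 217 and 198 CPM in the WT libraries, a log2 fold change of -0.75 ± 0.06 (edgeR adjusted p = 2.82e-09). Genes of chromosome 14, where RAB2A lies, had a median log2 fold change of -0.82, and with that median taken out RAB2A stood at 0.073 (adjusted p = 0.27). RAB2B had 37.8, 38.4 and 37.1 CPM in KO, against 25.8, 25.3 and 24.9 CPM in WT, a log2 fold change of 0.58 ± 0.07 (edgeR adjusted p = 4.35e-07). RAB2B thus made up 20.5% ± 0.395 of the summed RPKM of the pair in KO and 9.36% ± 0.644 in WT (SD, n = 3 each).

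Of this group RAB43, a Golgi Rab, rose most, with 107, 92.3 and 99.8 CPM in KO libraries, against 61.5, 59.9 and 65.3 CPM in WT libraries (log2 fold change 0.68 ± 0.06, edgeR adjusted p = 9.18e-09). RAB34, which positions lysosomes and is also needed for cilia, had 200.1, 181 and 205 CPM in KO, against 246, 231 and 242 CPM in WT. The KO values were all lower (log2 fold change -0.29 ± 0.05, edgeR adjusted p = 4.56e-05), as was the median of chromosome 19 (-0.25), and RAB34 stood at -0.041 with that median taken out (adjusted p = 0.487). RAB18, a Rab of the endoplasmic reticulum and lipid droplets, also fell (log2 fold change -0.36), and the Golgi Rab RAB30 rose by 0.26 (edgeR adjusted p = 0.0153), a call lost without KO replicate 3 (0.23) and without WT replicate 1 (0.22). The Golgi Rab RAB6A (-0.021), RAB33B (0.068), RAB36 (-0.049) and RAB39A (-0.27) were not called, and RAB36, at 38 reads in KO and 40 in WT, had an SE of 0.35.

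Early endosome Rabs act on the first compartment that endocytosed receptors reach. Of 8 tested, 2 rose, 5 fell and 1 was not called, with a median log2 fold change of -0.16 and none past 2-fold. The share called was 87.5%, beside 74.6% of all genes tested (37.1% higher and 37.6% lower).

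The RAB5 genes, whose proteins drive fusion of early endosomes, did not move together. RAB5C had 286, 269 and 271 CPM in the KO libraries, against 189, 179 and 185 CPM in the WT libraries, a log2 fold change of 0.58 ± 0.05 (edgeR adjusted p = 1.76e-09). RAB5B had 216, 211 and 210.1 CPM in KO, against 245, 223 and 225 CPM in WT, and RAB5A had 56.4, 57.7 and 61.3 CPM in KO, against 73.3, 69.7 and 58.1 CPM in WT. For RAB5A the groups overlapped, since WT replicate 3 lay within the KO range. Both were called lower, RAB5B at -0.12 (edgeR adjusted p = 0.0267) and RAB5A at -0.20 (edgeR adjusted p = 0.0245), and both calls were lost when WT replicate 1, KO replicate 1 or KO replicate 2 was left out, and with DESeq2. For RAB5A leaving out WT replicate 2 also ended the call, and for RAB5B leaving out KO replicate 3. RAB5C held 45.0% ± 0.791 of the summed RPKM of the RAB5 genes in KO and 33.2% ± 1.22 in WT, and their sum was 160.4 ± 2.76 RPKM in KO and 146 ± 7.18 RPKM in WT (SD, n = 3 each).

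RAB31, which carries receptors between the trans-Golgi network and endosomes, fell with no overlap, at 202, 195 and 200.3 CPM in KO libraries, against 290.2, 292 and 295 CPM in WT libraries (log2 fold change -0.56 ± 0.04, edgeR adjusted p = 1.24e-09). Chromosome 24, on which it lies, had a median of 0.37 in the other direction. RAB22A, its close relative, was not called at -0.083 (edgeR adjusted p = 0.16), and RAB21, known for the endocytosis of integrins, rose by 0.30. A second, shorter row of the symbol RAB21 on chromosome X, 645 bases long, held 430 reads in KO and 369 in WT and was not called, and reads of the 2 rows may have been split between them. RAB24, linked to autophagy, fell by 0.30 on the log2 scale, and RAB20, linked to phagosomes, fell by 0.49. That fall is close to the median of chromosome 12 (-0.43), and RAB20 stood at -0.061 with it taken out.

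Recycling and polarized delivery covers the return of endocytosed proteins to the surface and their sorting to 1 face of the cell. Of 12 tested, 2 rose, 8 fell (RAB15 and RAB25 among them) and 2 were not called, beside 37.1% higher and 37.6% lower among all genes tested, with a median log2 fold change of -0.27. The summed level was 486 ± 6.88 RPKM in KO and 573 ± 7.76 RPKM in WT (SD, n = 3 each).

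RAB11A, the general Rab of recycling endosomes, had 182, 195 and 190.3 CPM in the KO libraries, against 268, 278 and 252 CPM in the WT libraries. No KO library reached the lowest WT library, and the log2 fold change was -0.49 ± 0.05 (edgeR adjusted p = 3.52e-08). The median of chromosome 10 was -0.28, and RAB11A remained called at -0.21 with it taken out (adjusted p = 7.69e-04). RAB11B had 85.4, 80.6 and 86.0 CPM in KO libraries, against 95.04, 97.3 and 100.3 CPM in WT libraries (log2 fold change -0.22 ± 0.05, edgeR adjusted p = 8.72e-04). All 3 genes of the RAB11 group were thus lower in KO, and their sum was 158 ± 3.59 RPKM in KO and 236 ± 8.92 RPKM in WT. RAB25 made up 1.63% ± 0.289 of that sum in KO and 10.1% ± 0.879 in WT (SD, n = 3 each; two-sided exact permutation p = 0.1, the smallest that 3 against 3 libraries allow). Shares of the other related Rab genes gave the same permutation p, except RAB10 (0.4), so this p does not single out RAB25.

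RAB4A, which returns receptors quickly from early endosomes to the surface, had 8.84, 9.84 and 9.25 CPM in KO libraries, against 17.4, 18.4 and 17.0 CPM in WT libraries. RAB4A was close to 2-fold lower, at a log2 fold change of -0.92 ± 0.10 (edgeR adjusted p = 1.13e-07). Chromosome 28 had a median of -0.57, and with it taken out RAB4A stood at -0.35 (adjusted p = 0.00381).

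The RAB8, RAB10 and RAB13 genes send vesicles to the plasma membrane, to cilia and to cell junctions. RAB10 had 190.3, 192 and 185 CPM in the KO libraries, against 212, 212 and 203 CPM in the WT libraries, a small fall of 0.15 ± 0.04 on the log2 scale (edgeR adjusted p = 0.00562). RAB13, linked to tight junctions, had 86.0, 83.7 and 74.6 CPM in KO, against 99.95, 96.1 and 111 CPM in WT (log2 fold change -0.33 ± 0.06, edgeR adjusted p = 1.56e-04). Like RAB25 it lies on chromosome 3, and with that chromosome's median of -0.39 taken out RAB13 stood at 0.061 (adjusted p = 0.406). RAB8A had 76.7, 72.3 and 71.2 CPM in KO, against 76.1, 73.6 and 68.1 CPM in WT, so the groups overlapped (log2 fold change 0.016, edgeR adjusted p = 0.805). RAB8B had 18.5, 16.0 and 16.4 CPM in KO, against 22.8, 23.3 and 21.7 CPM in WT (log2 fold change -0.41 ± 0.08, edgeR adjusted p = 2.67e-04), and it stood at -0.13 with the median of chromosome 10 taken out (adjusted p = 0.182). RAB8B overlaps CA12 on the opposite strand, and since the strand setting of the counting is not given, their reads cannot be told apart.

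RAB14, which works between the Golgi and endosomes, rose against the direction of this group. It had 110.0, 119 and 111 CPM in KO libraries, against 75.6, 73.2 and 70.8 CPM in WT libraries (log2 fold change 0.63 ± 0.05, edgeR adjusted p = 3.62e-09). RAB12, which directs transferrin receptor to degradation, had 116, 117 and 118 CPM in KO, against 94.2, 90.9 and 89.1 CPM in WT (log2 fold change 0.36 ± 0.05, edgeR adjusted p = 2.02e-06). The median of its chromosome 24 was 0.37, which left RAB12 at -0.013 (adjusted p = 0.811). RAB35, a Rab of fast recycling and cell division, was not called at 0.092 (edgeR adjusted p = 0.132), though it was called at 0.12 without WT replicate 3.

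Late endosome and lysosome Rabs had the highest median, 0.43, of the role groups with more than 1 gene tested. Of 6 tested, 4 rose, 0 fell and 2 were not called. The share called was 66.7%, beside 74.6% of all genes tested (37.1% higher and 37.6% lower). Summed per length they came to 202 ± 1.93 RPKM in KO and 157 ± 7.88 RPKM in WT (SD, n = 3 each), a ratio of 1.28.

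RAB7A, which governs the maturation of late endosomes and their fusion with lysosomes, had 309.5, 312 and 309.8 CPM in the KO libraries, against 262, 260.1 and 229.8 CPM in the WT libraries. Its rise was small but without overlap, at 0.31 ± 0.05 on the log2 scale (edgeR adjusted p = 2.22e-05). RAB7B, which works between late endosomes and the trans-Golgi network, had 57.7, 54.9 and 59.98 CPM in KO, against 38.7, 41.7 and 37.7 CPM in WT (log2 fold change 0.55 ± 0.06, edgeR adjusted p = 4.04e-07).

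RAB32, the nearest relative of RAB38 and its partner in melanosome biogenesis, had 22.2, 21.1 and 20.1 CPM in KO, against 10.7, 12.6 and 12.3 CPM in WT. It rose by 0.83 ± 0.09 on the log2 scale (edgeR adjusted p = 2.58e-07), so both genes of that pair were higher in KO. RAB29, the other relative, known for recruiting the kinase LRRK2, had 20.03, 21.1 and 21.7 CPM in KO, against 23.5, 24.4 and 22.3 CPM in WT, and was not called (log2 fold change -0.16 ± 0.08, edgeR adjusted p = 0.0742), though it was called at -0.19 without WT replicate 3. The sum of RAB29, RAB32 and RAB38 was 30.7 ± 1.22 RPKM in KO and 13.5 ± 0.696 RPKM in WT, a ratio of 2.28. RAB38 held 41.4% ± 3.42 of it in KO and 0.505% ± 0.590 in WT (SD, n = 3 each). RAB9A, which returns mannose 6-phosphate receptors to the Golgi, was not called at -0.12 (edgeR adjusted p = 0.1).

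**Figure D4:**
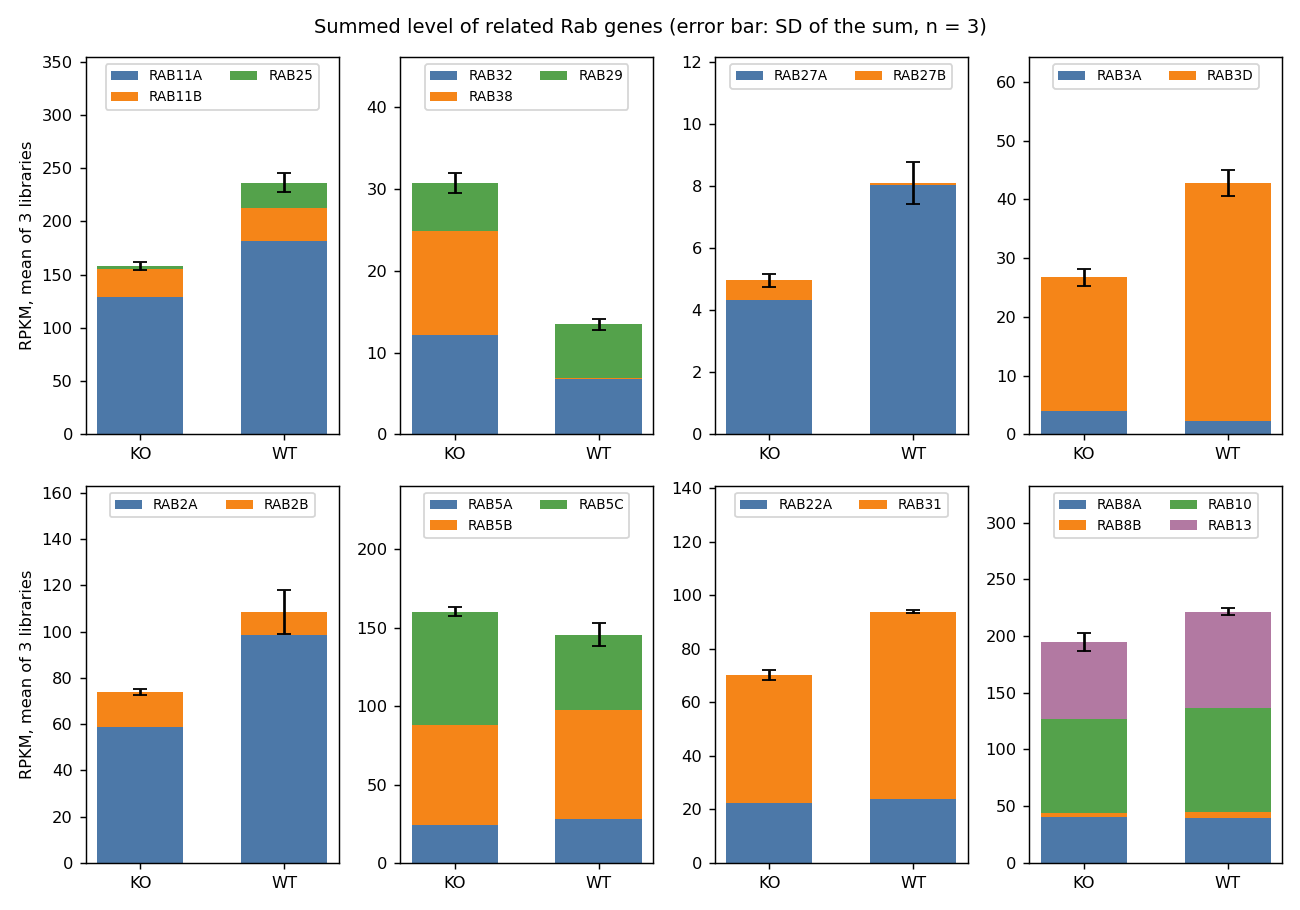
Mean RPKM in KO and WT of 8 groups of related Rab genes, stacked by gene, with the SD of the sum (n = 3). The RAB11 group falls to 158 RPKM in KO against 236 RPKM in WT, and the RAB29, RAB32 and RAB38 group rises to 30.7 RPKM in KO against 13.5 RPKM in WT.

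Rabs of regulated secretion dock stored vesicles for release. Of 5 tested, 2 rose and 3 fell, beside 37.1% higher and 37.6% lower among all genes tested. Their sum was 33.5 ± 1.47 RPKM in KO and 53.7 ± 2.76 RPKM in WT (SD, n = 3 each), a ratio of 0.624.

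In both of the related pairs of this group the more abundant gene fell and the rarer one rose. RAB27A had 11.9, 12.6 and 13.0 CPM in the KO libraries, against 24.3, 24.4 and 21.1 CPM in the WT libraries (log2 fold change -0.90 ± 0.09, edgeR adjusted p = 6.23e-08). With the median of chromosome 10 (-0.28) taken out, RAB27A stood at -0.61 (edgeR adjusted p = 8.61e-06). RAB27B held 13.2% ± 0.0553 of the summed RPKM of this pair in KO and 0.714% ± 0.508 in WT, and the sum was 4.97 ± 0.207 RPKM in KO and 8.10 ± 0.671 RPKM in WT (SD, n = 3 each). Per length, RAB27B therefore gained less than RAB27A lost.

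RAB3D, the Rab of zymogen granules in exocrine cells, had 82.2, 77.6 and 83.8 CPM in KO, against 155, 142 and 139.6 CPM in WT (log2 fold change -0.84 ± 0.05, edgeR adjusted p = 1e-10). RAB3A, best known from synaptic vesicles, had 6.71, 5.44 and 6.91 CPM in KO, against 3.39, 3.54 and 3.44 CPM in WT (log2 fold change 0.88 ± 0.16, edgeR adjusted p = 5.93e-05). RAB3A overlaps MPV17L2 on the opposite strand, with the same limit as for RAB8B. Its share of the RAB3 sum was 15.01% ± 1.15 in KO and 5.12% ± 0.349 in WT, while the sum itself was 26.7 ± 1.39 RPKM in KO and 42.8 ± 2.28 RPKM in WT (SD, n = 3 each). RAB26, a Rab of secretory granules, had 3.39, 3.10 and 3.18 CPM in KO, against 5.08, 4.82 and 4.92 CPM in WT (log2 fold change -0.62 ± 0.16, edgeR adjusted p = 0.00185).

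The remaining 3 genes have other roles. RAB23, a negative regulator of Hedgehog signalling that also acts at cilia, had 35.9, 34.7 and 34.9 CPM in KO libraries, against 20.3, 18.3 and 21.3 CPM in WT libraries (log2 fold change 0.82 ± 0.08, edgeR adjusted p = 2.26e-08). RAB28, linked to cilia of photoreceptors, fell by 0.34 on the log2 scale (edgeR adjusted p = 6.14e-04) and stood at -0.16 with the median of chromosome 6 taken out (adjusted p = 0.0731). RAB40C, which carries a SOCS box and joins ubiquitin ligases, fell by 0.30 (edgeR adjusted p = 0.0027).

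The authors' deposited table of their own comparison stops at an adjusted p of 0.0499 and lists 9532 genes in all, where 13390 were tested here. It lists 34 of the 46 Rab genes, 14 higher and 20 lower in KO. RAB5A and RAB5B are the 2 genes called here that are not in the authors' deposited table.

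Genes that load, remove or read out Rab proteins were followed as a second set. Of 119 listed, 110 were tested, 30 rose and 59 fell, or 80.9% called beside the 74.6% of all genes. Among all genes tested 37.1% were higher and 37.6% lower. The median log2 fold change was 0.36 for 8 genes of prenylation and membrane extraction, -0.21 for 32 exchange factors, -0.34 for 35 GTPase-activating proteins and -0.18 for 35 effectors, beside -0.0099 for all genes.

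Prenylation and membrane extraction was the class with more rises, 5 of 8 with 1 fall, or 75.0% called beside 74.6% of all genes tested. RABAC1, a membrane protein that binds prenylated Rabs, had 472, 454 and 467 CPM in KO libraries, against 315, 309.8 and 355 CPM in WT libraries (log2 fold change 0.51 ± 0.05, edgeR adjusted p = 5.29e-08). With the median of chromosome 18 (0.32) taken out, RABAC1 stood at 0.19 (edgeR adjusted p = 0.00278). RABIF, which stabilizes nucleotide-free Rabs, rose by 0.50. RABGGTA, the alpha subunit of the transferase that adds the prenyl groups, had a log2 fold change of -0.35, and stood at -0.071 with the median of chromosome 10 taken out (adjusted p = 0.265). The beta subunit RABGGTB rose by 0.43 (edgeR adjusted p = 4.10e-07), so the 2 subunits moved in opposite directions. With the median of chromosome 3 (-0.39) taken out, RABGGTB stood at 0.83 (edgeR adjusted p = 6.91e-11). RABGGTB overlaps RF00279 on the same strand.

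Among the exchange factors 9 rose and 17 fell, or 81.25% called beside 74.6% of all genes tested. DENND5A, an exchange factor described for RAB39, had 188, 186 and 189 CPM in KO, against 76.1, 75.6 and 72.2 CPM in WT (log2 fold change 1.33 ± 0.05, edgeR adjusted p = 2.01e-14). RAB3IL1, which activates RAB8 proteins, was rare, with 81 reads in KO and 6 in WT, a ratio of 13.7 (95% counting interval 6.04 to 38.5). DENND2B, listed under its older symbol, rose by 0.50. The largest falls were those of DENND1C (-1.06), of MADD (-0.98), which activates RAB3 and RAB27 proteins, and of DENND4A (-0.97), which activates RAB10. MADD had 44.8, 45.0 and 43.8 CPM in KO, against 82.8, 90.2 and 90.4 CPM in WT. Of the RAB3 and RAB27 genes tested, RAB3D and RAB27A also fell, while RAB3A (0.88) and RAB27B (3.41) rose.

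Of the GTPase-activating proteins 6 rose and 22 fell, or 80.0% called beside 74.6% of all genes tested. TBC1D16, described as acting on RAB4A, had 101 reads in KO and 0 in WT, at least 34.2-fold higher against a floor of 3 counts over the group. TBC1D9 (0.64) and TBC1D9B (0.53) rose less. TBC1D10C fell by 1.60 on the log2 scale, TBC1D30 by 0.91 and TBC1D8 by 0.90.

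Effectors, which bind the GTP-loaded Rab, rose in 10 cases and fell in 19, and they held the largest falls. The share called was 82.9%, beside 74.6% of all genes tested. UNC13D, a RAB27 effector that primes granules for release, had 0.344, 0.272 and 0.502 CPM in KO libraries, against 61.7, 63.3 and 71.7 CPM in WT libraries (log2 fold change -7.44 ± 0.15, edgeR adjusted p = 9.51e-18). It overlaps UNK on the opposite strand, so the origin of its reads is less certain. MICAL1, an actin-oxidizing effector of RAB8-type and RAB35 proteins, had 2 reads in KO and 875 in WT, a ratio of 430 (95% counting interval 119 to 3557). RAB11FIP4, which binds RAB11, fell by 1.87 on the log2 scale. In the other direction BICD1, a dynein adaptor of RAB6 vesicles, rose by 1.42, MICAL2 by 0.91 and PLEKHM1, a RAB7 effector of lysosome fusion, by 0.77.

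**Figure D5:**
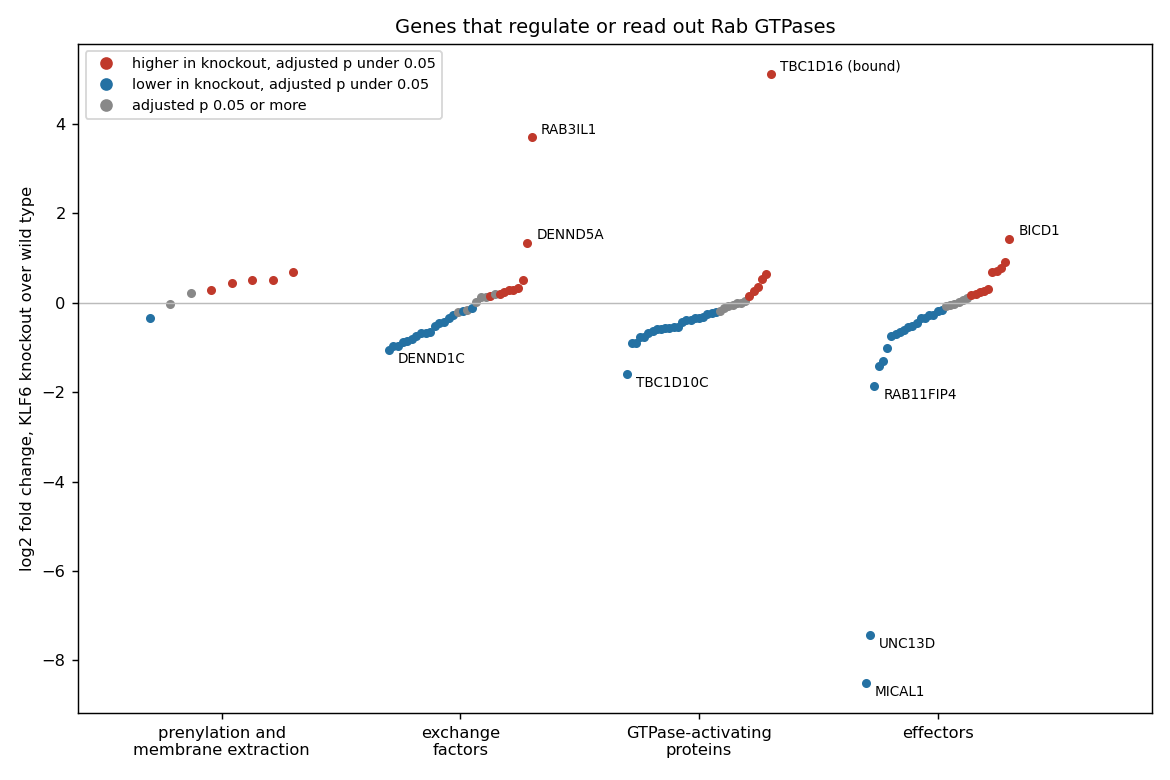
Log2 fold change, KO over WT, of 110 genes that regulate or read out Rab proteins, sorted within 4 classes. TBC1D16 is drawn at its bound, the fitted value of MICAL1 rests on 2 reads in KO, and falls outnumber rises in every class except prenylation and membrane extraction.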

How the data were processed

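Per the labels' protocols, total RNA was isolated with TRIzol and DNase I treatment, and the library kit was Ion Total RNA-Seq Kit v2. The authors deposited raw counts per gene for the 6 libraries; HISAT2 2.0.5 and featureCounts 1.5.0-p3 are named in the submitters' processing notes, and build, annotation and strand setting are not stated. The authors' deposited table of their comparison holds log2 fold changes, p-values and, per sample, a normalized signal, which equals the counts divided by 1 factor per library.

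Counts of all rows were tested with edgeR 4.0.16 (R 4.3.3, limma 3.58.1): filterByExpr (minimum count 10, minimum total 15), TMM scaling, robust quasi-likelihood test, Benjamini-Hochberg adjustment at 0.05 over 13390 genes. Folds are KO over WT. Each SE derives from the test: the absolute log2 fold change divided by the root of F. Gene lengths, coordinates and symbols are the file's. The script was tested on simulated data. Alternatives were DESeq2 1.42.0, limma-voom, other filters and scalings, an offset of the median of each chromosome with at least 50 tested genes, each library left out, and a replicate block.

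The Rab genes and all lists were chosen with earlier results of these data known. Named by rule were KLF6, Rab genes called with at least a 2-fold change, the 5 with the highest RPKM, relatives of both, and up to 3 called genes per direction of each regulator class; 1 gene of these is not reported here. Per-library values of other Rab genes, the regulator RABGGTB and the genes under the closing observations were chosen after their values were seen. RABGEF1 and TBC1D24 were listed but not found under those symbols. Intervals and floors cover counting error only.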

Additional observations from a re-analysis of the deposited data

How the results depend on the processing

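Of the 36 Rab genes called, 25 remained called with an unchanged direction under all 13 alternatives run per gene, and RAB15, RAB25, RAB38 and RAB27B were among them. The number called ranged from 30 to 40, with 13 to 15 higher and 16 to 26 lower: 34 with DESeq2, 36 with limma-voom, 40 with scaling by library size (RAB1A, RAB9A, RAB22A and RAB29 added), and 33 to 38 with 1 library left out. It was lowest, at 30, with the chromosome median taken out, where RAB2A (0.073), RAB12 (-0.013), RAB13 (0.061) and RAB6A (0.17) changed sign. Also there, RAB33B (-0.035), RAB35 (-0.012) and RAB8A (-0.089), not called in either fit, changed sign. The calls of RAB2A, RAB12, RAB13, RAB34, RAB1B, RAB8B, RAB20, RAB28 and RAB5A were lost, and RAB6A (adjusted p = 0.00243), RAB22A (-0.16, adjusted p = 0.0106) and RAB29 (-0.26, adjusted p = 0.00598) were called. The cause was not tested. RAB30 lost its call without KO replicate 3 (adjusted p = 0.0619) and without WT replicate 1, within a range of 0.22 to 0.32 over the left-out libraries. RAB36 has no value where at least 1 CPM in 3 libraries was asked for. Of the regulators and effectors, 78 to 90 were called. The share of all genes called is given for the main fit only. Counts under the alternatives therefore do not show whether Rab genes are more or less stable than other genes.

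Replicate numbers did not pair the libraries: deviations of same-numbered KO and WT libraries correlated at -0.05, 0.08 and -0.02. With the replicate number as a block, 36 Rab genes were called, 14 higher and 22 lower, as without it, and 88 regulators and effectors in place of 89. Depth limits RAB27B and RAB36, whose SEs were 0.44 and 0.35.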

Other observations

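Partners of the Rabs that changed most were listed after the values were seen, so they are a description. Of 9 known effectors of RAB27 proteins, 4 passed the filter, 0 rose and 3 fell, UNC13D among them, which is 75.0% called beside 74.6% of all genes tested. SYTL1, which tethers RAB27 vesicles, had 99.2, 97.5 and 98.5 CPM in KO libraries, against 149.6, 147 and 153 CPM in WT libraries (log2 fold change -0.61 ± 0.05, edgeR adjusted p = 1.03e-09). MLPH, which links RAB27A to myosin in melanocytes, had 0 reads in every library. RPH3AL, another binder of RAB3 and RAB27 proteins that is outside that count, fell by 1.01 on the log2 scale.

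Of 7 effectors of RAB11 and RAB25, 2 rose and 4 fell, beside 37.1% higher and 37.6% lower among all genes tested. MYO5B, the myosin that moves RAB11 vesicles to the apical membrane, had 91.8, 83.9 and 89.6 CPM in KO, against 143, 156 and 146 CPM in WT (log2 fold change -0.75 ± 0.05, edgeR adjusted p = 3.5e-10). MYO5C, a myosin of exocrine secretory cells, is outside that count. It had 12.6, 13.0 and 12.2 CPM in KO, against 31.1, 35.3 and 34.8 CPM in WT (log2 fold change -1.42 ± 0.08, edgeR adjusted p = 3.24e-11). RAB11FIP1 rose by 0.70.

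Around RAB32 and RAB38 the values depended on the fit. In the main fit HPS1 and HPS4, which together form their exchange factor, stood at -0.44 (edgeR adjusted p = 5.02e-05) and 0.20 (edgeR adjusted p = 0.0415). For HPS4 the KO and WT libraries overlapped in CPM. ANKRD27, an effector of RAB32 and RAB38, stood at 0.013 and was not called (edgeR adjusted p = 0.868). With the medians of chromosomes 26 (0.45), 17 (0.10) and 18 (0.32) taken out, HPS1 stood at -0.89 (edgeR adjusted p = 8.55e-09). HPS4 then stood at 0.093 and was not called (edgeR adjusted p = 0.329), while ANKRD27 stood at -0.31 and was called (edgeR adjusted p = 4.11e-04).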
